A study of Rattus norvegicus with 8 samples.

Results

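Molecular chaperones that a cell makes under ordinary conditions were followed in the Achilles tendon of the rat. The group was taken from the deposited table as the protein-coding genes whose symbols begin with Dnaja, Dnajb, Dnajc, Cct and a digit, or Hspa, Hspb, Hspd, Hspe or Hsp9. Left out by name were 9 genes, Hspa1a, Hspa1b, Hspa8, Hsph1, Hsp90aa1, Hspb1, Dnajb1, Hspa5 and Hsp90b1. They are called the inducible genes below, as heat-inducible or endoplasmic reticulum stress genes, although Hspa8 among them is the constitutive HSP70. Also left out was Hspg2, which encodes a matrix proteoglycan. This rule uses names and no measured value, and it found 68 of the 15590 genes in the table. The families comprised 40 J proteins (4 Dnaja, 10 Dnajb and 26 Dnajc genes), 8 chaperonin subunits of the Cct series and 20 other heat shock protein genes.

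The tendons came from wild-type male Sprague-Dawley (SD) rats that were 8 to 10 weeks old. The 4 rats of the 0 h p.r. (post-run) group ran for 1 h on a treadmill at a 10° incline and 20 m/min, urged on by airflow and a mild electric stimulus, and were killed at once. The 4 naïve controls (NC) kept to normal cage activity and, by the methods of the study, were killed together with a group that had rested for 12 h, so running, handling and time of day cannot be told apart. RNA with a poly(A) tail was sequenced from whole tendon of the right leg, one library per sample, and nothing in the labels says more about how the replicates of a group were separated, so p-values measure the spread between these samples.

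Chaperones bind proteins that are not yet, or no longer, folded. HSP70 proteins hold short stretches of such clients in an ATP-driven cycle, J proteins deliver the clients and start the cycle, nucleotide exchange factors end it, HSP90 takes over signalling proteins, and the barrel-shaped chaperonins (TRiC in the cytosol, Hspd1 with its lid Hspe1 in mitochondria) enclose a whole chain while it folds, actin and tubulin being the classic clients of TRiC. Small heat shock proteins need no ATP and keep unfolding proteins from clumping, and several of them are abundant in muscle. When proteins unfold under heat or effort, the transcription factor HSF1 binds repeats of a short element in the promoters of chaperone genes.

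That element was looked for in the promoters as RefSeq gives them on the build GRCr8, 250 bases before to 50 bases after each start, since the regulation of these genes by heat is commonly read from it. A promoter was found for 56 of the 68 members. The long form searched was GAANNTTC followed by NNGAA, which on the other strand reads TTCNNGAA followed by NNTTC. It stood in 4 of those 56 promoters (7.14%) and in 202 of all 27457 promoters (0.736%). The shorter GAANNTTC, which reads the same on both strands and is part of the long form, stood in 9 of 56 (16.1%) beside 8.34% of all. The form TTCNNGAA, which overlaps the others, stood in 11 of 56 (19.6%) beside 8.49%. The members with the long form were Dnaja1, Hspd1, Hspe1 and Cct4, and the stretches that hold it are shown here because they fall on 2 genes whose level rose and 2 whose level did not pass the test. Capitals mark the matched run, all sequences read 5′ to 3′ on the strand of the gene, and Hspa8 and Hsph1 are set beside them. These are the inducible genes left out by the rule that held the long form, 2 of 6 whose promoter was found (33.3%), and Dnajb1 did not hold it. The shorter GAANNTTC stood in 4 of those 6 (66.7%), Dnajb1 among them, and TTCNNGAA in 2 of 6 (33.3%). Of the called members, no promoter was found for Dnajb4, and the promoter of Hspa1l held none of the 3 forms.
Dnaja1: gccgggcgGAACTTTCCAGAAcgctcggt
Hspe1: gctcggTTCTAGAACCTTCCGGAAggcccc
Hspd1: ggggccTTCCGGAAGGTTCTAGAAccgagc
Cct4: gcgtcgctTTCTGGAAGGTTCgtggaggc
Hspa8, upstream match: gcgagcgtGAAAGTTCCAGAAcgctgcgg
Hspa8, downstream match: cggaacccTTCTGGAAGGTTCtaagacag
Hsph1: gccgcagaTTCTGGAAAGTTCtcctcagt
The Dnaja1 stretch is chr5:60638405-60638433 on the plus strand, with the run at bases 10 to 22 of the transcript. The Cct4 stretch is chr14:101193074-101193102 on the plus strand, with the run at bases 26 to 38 of the transcript. Hspd1 and Hspe1 face away from each other and overlap in RefSeq, so that both lines are the same stretch, chr9:64084256-64084285, read on the minus and on the plus strand, and it holds 2 overlapping matches. The Hspa8 stretches are chr8:50080293-50080321 and chr8:50080451-50080479 on the plus strand, and Hspa8 did not pass the test (adjusted p 0.152). Hsph1 was at chr12:10427324-10427352 on the plus strand. A match describes letters and is no measured binding.

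Of the 68 members, 65 passed the filter on low values (an FPKM, fragments per kilobase of gene scaled to library depth, of 0.5 or more in 4 or more libraries). Cct6b, Dnajc6 and Dnajb13 did not. Cct6b, a TRiC subunit gene best known from testis, lay at 0.152 to 0.228 FPKM in controls and 0 to 0.218 in runners. Dnajc6, the auxilin that strips clathrin from vesicles, lay at 0.154 to 0.321 and 0.101 to 0.306. Dnajb13, a gene of cilia and sperm tails, lay at 0.151 to 0.328 and 0 to 0.393. At the other end Hsp90ab1, the constitutive cytosolic HSP90, had the highest mean of all members over the 8 libraries, 668 FPKM, against a median of 20.4 FPKM for the 68.

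After 1 h of running, 4 of the 65 tested members were higher and 0 were lower at a limma adjusted p under 0.05. The 4 were the J protein genes Dnaja1 and Dnajb4, the mitochondrial chaperonin Hspd1 and the HSP70 gene Hspa1l, and of these only the J protein genes also passed a fold change of 2. Among all 13863 genes tested, 3.49% were higher and 2.23% lower, and 1.8% were higher and 0.894% lower with the fold change of 2 as well. The 6.15% of members called in either direction lay close to the 5.72% of all genes, so the number of calls does not set the members apart. At an unadjusted p under 0.05, 12 members were higher and 4 lower, beside 11.4% and 11.2% of all genes, and limma's voom on recovered reads also called 0 members lower. In the classes without a call, the members with an unadjusted p under 0.05 were Cct6a, Dnajc25, Dnajc21, Hspb6 and Hspb7, and voom called none of them. The groups did not overlap for 9 members higher in 0 h p.r. and 2 lower, together 16.9% of the tested members, beside 8.15% of all genes higher and 7.47% lower. The median log2 fold change was 0.10 over the members and 0.00 over all genes, with 42 of 65 members above 0 against 49.9% of all genes. In 53 of 65 members the fitted log2 fold change was smaller than 0.5 in size. The count of 4 rested on single libraries. It became 2 without NC replicate 3 or without 0 h p.r. replicates 1, 2 or 3, and 8 without 0 h p.r. replicate 4, and 1 member was lower without 0 h p.r. replicate 1. Over all genes, calls in either direction moved too, from 793 to 343, 339, 247, 264 and 1164 in these fits, in the same order. Dnaja1 and Dnajb4 passed whichever of the 8 libraries was left out.

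**Figure D1:**
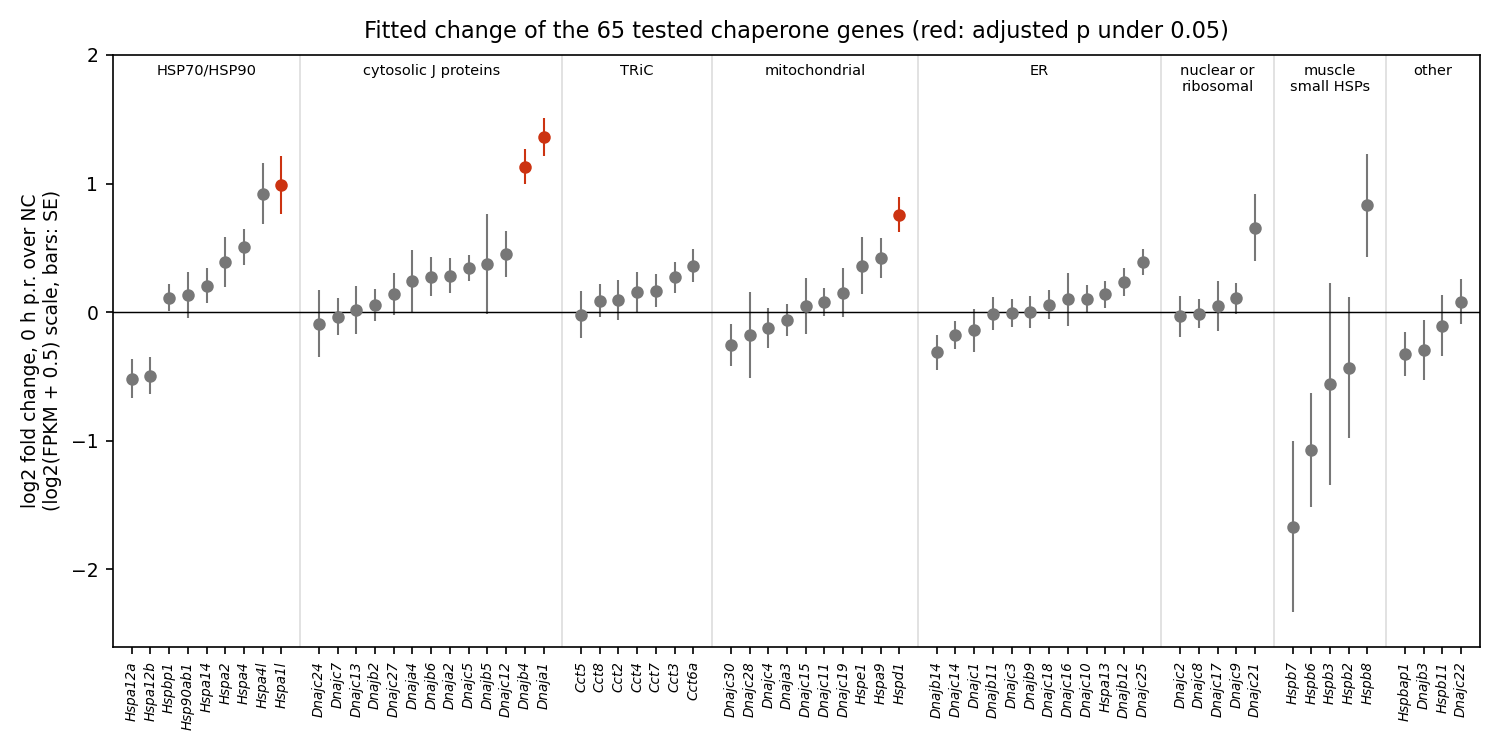
Fitted log2 fold change (0 h p.r. over NC, on the log2(FPKM + 0.5) scale) of the 65 tested members, ordered within 8 classes, with bars of 1 standard error and the 4 members past an adjusted p of 0.05 in red. The J protein genes Dnaja1 (1.36) and Dnajb4 (1.13) stand highest, and the bars of the muscle small heat shock proteins are the longest.

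Markers of other tissues were read beside these values, since a dissected tendon carries neighbouring cells. All 9 tenocyte markers passed the filter, the lowest at a mean of 9.14 FPKM, and their mean log2(FPKM + 0.5) was 8.01 to 8.88 in controls and 8.24 to 8.97 in runners. Of 8 adipocyte markers 5 were lower in 0 h p.r., and their mean level was 7.35 to 8.67 in NC against 5.01 to 6.93. The 6 bone and cartilage markers tested spanned 0.86 to 4.10 in controls and 4.12 to 5.94 in runners, with 0 called. The 16 skeletal muscle markers tested of 20 spanned 7.53 to 8.79 in controls and 5.71 to 10.36 in runners, with 0 called and none of the 16 below a mean of 45.7 FPKM. In bulk tissue, fewer cells of a type and less RNA per cell cannot be told apart, and the part of these shifts in the results was not tested apart from the muscle level, which is given with the results it touches.

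The J proteins of the cytosol and of membrane traffic held both members with the largest rise. Dnaja1 (ENSRNOG00000007029), a farnesylated J protein that works with cytosolic HSP70, was at 139.6, 109, 105 and 133 FPKM in NC replicates 1 to 4 and at 315, 330.2, 338 and 263 in the 0 h p.r. replicates. Every 0 h p.r. library lay well above the highest NC library, and the long form of the element shown above lies at the start of this gene. The mean went from 121 ± 17.2 to 312 ± 33.6 FPKM (SD, n = 4), a 2.57-fold rise (log2 fold change 1.36, SE 0.15, limma adjusted p 0.00205), behind which stood 1733 to 9645 recovered reads per library. A separate row for the microRNA gene Mir207, which lies inside Dnaja1, had 0 reads in all 4 controls and 1 to 22 reads in the runners, and reads of both genes cannot be told apart without the strand setting of the count.

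Dnajb4 (ENSRNOG00000013011), a class B J protein of muscle and other tissues that belongs to the family of the inducible Dnajb1, was at 38.1, 35, 46.4 and 39.3 FPKM in NC and at 90.6, 73.4, 84.6 and 101 in 0 h p.r. The lowest post-run library was above the highest control by a wide margin. Its mean rose from 39.7 ± 4.81 to 87.5 ± 11.7 FPKM (SD, n = 4; 2.19-fold, log2 fold change 1.13, SE 0.14, limma adjusted p 0.00339). Over the 8 fits without a library the adjusted p stayed between 0.00476 and 0.0174, and for Dnaja1 between 0.002 and 0.014. The inducible relatives left out by the rule were read with the same fit: Dnajb1 rose 3.22-fold (adjusted p 0.000532) and Hsph1 4.07-fold (0.00205). Hspa1b rose 13.7-fold (0.000886). These were 3 of the 8 such genes in the table (37.5%), beside 5.72% of all genes called. The others did not pass: Hspa8 (0.152), Hspb1 (0.239), Hsp90aa1 (0.381), Hsp90b1 (0.582) and Hspa5 (0.918).

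The other 11 tested J proteins of the cytosol and membranes did not pass, and 9 of the 11 had a fitted value above 0. The median log2 fold change of the 13 in this class was 0.28, and it was 0.08 without 0 h p.r. replicate 1. Dnajc5, the cysteine string protein of secretory vesicles, had groups that did not overlap, with 18.1 to 21.3 FPKM in controls and 24 to 27.2 in runners (log2 fold change 0.34, SE 0.10, limma adjusted p 0.0815). It was singled out after its values were seen. Dnajc24, which takes part in making diphthamide, had the lowest fitted value of the class at -0.09 (SE 0.26, adjusted p 0.887), with 4.91 to 12 FPKM in controls and 5.79 to 8.8 in runners. Dnajb5 showed how far single libraries can reach: its 0 h p.r. values were 50.8, 20.2, 29.2 and 11.5 FPKM against 13.2 to 23.6 in NC, so that the highest and the lowest library of all 8 were both post-run. Those were also the libraries with the highest and the lowest level of muscle markers. Dnajb5, too, was named only after its values were seen. By family, 1 of 4 tested Dnaja, 1 of 9 Dnajb and 0 of 25 Dnajc genes were called higher, beside 3.49% of all genes.

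**Figure D2:**
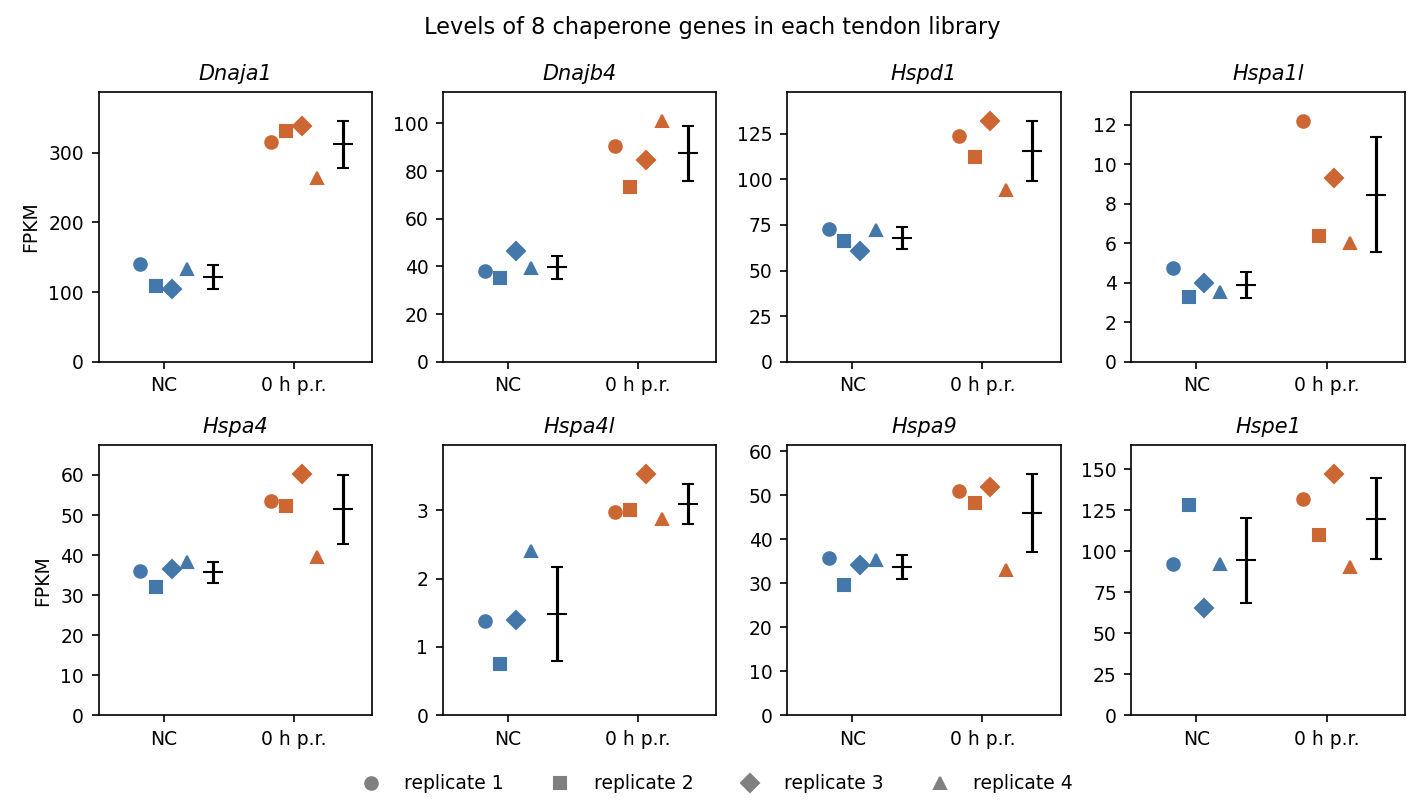
FPKM of 8 members in each library, NC in blue and 0 h p.r. in orange, with the symbol giving the replicate number and the black mark the mean with 1 SD (n = 4) and each axis starting at 0. Dnaja1, Dnajb4, Hspd1, Hspa1l, Hspa4 and Hspa4l do not overlap between the groups, while 0 h p.r. replicate 4 lies among the NC libraries for Hspa9 and Hspe1.

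Among the cytosolic HSP70 and HSP90 genes and their regulators, the 9 members took different directions. Hspa1l (ENSRNOG00000047966), an HSP70 gene next to the inducible pair Hspa1a and Hspa1b, was at 4.73, 3.28, 4.02 and 3.52 FPKM in NC and at 12.2, 6.37, 9.31 and 6.01 in 0 h p.r. The groups did not overlap, and 0 h p.r. replicate 1 was the highest of all 8. It rose 1.99-fold (log2 fold change 0.99, SE 0.23, limma adjusted p 0.0397), on 78 to 391 recovered reads per library. This value is uncertain, because Hspa1l overlaps Hspa1a in RefSeq and its coding sequence is close to those of its neighbours, so that reads can be shared. It passed in 1 of the 8 fits without a library, the one without 0 h p.r. replicate 4 (0.023), and the adjusted p reached 0.111 without 0 h p.r. replicate 3.

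Hspa4 and Hspa4l encode HSP110-type exchange factors for HSP70, like the inducible Hsph1. Hspa4 was at 36, 32.1, 36.5 and 38.2 FPKM in NC and at 53.4, 52.3, 60.2 and 39.6 in 0 h p.r. The groups were apart, but replicate 4 of the runners came within a few units of the controls. The fitted log2 fold change was 0.51 (SE 0.14) and did not pass (limma adjusted p 0.0687). It passed in 1 of the 8 fits without a library, the one without replicate 4 of the runners (0.63, adjusted p 0.0172), and the adjusted p reached 0.177 without 0 h p.r. replicate 3. Hspa4l, singled out after its values were seen, lay at 1.38, 0.747, 1.4 and 2.4 FPKM in NC and 2.98, 3.01, 3.53 and 2.87 in 0 h p.r., a log2 fold change of 0.92 (SE 0.24, adjusted p 0.0573). It too passed in only 1 of these 8 fits, the one without NC replicate 4, the highest control (adjusted p 0.0275), and the adjusted p reached 0.148 without 0 h p.r. replicate 3. Hspa4, Hspa4l and Hsph1 were all 3 fitted above 0, and of them only Hsph1 passed.

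The atypical HSP70 genes lay on the other side. Hspa12a was at 4.29, 3.46, 3.62 and 3.46 FPKM in NC and at 2.07, 3.16, 2.39 and 2.22 in 0 h p.r., and Hspa12b, a gene of endothelium, at 35.3, 30.8, 30.2 and 40.9 against 25.5, 24.3, 27.6 and 19.7. In both genes every post-run library was below every control. The log2 fold changes were -0.52 (SE 0.15, limma adjusted p 0.0861) and -0.49 (SE 0.14, adjusted p 0.0813), which do not pass. Hspa12b was singled out after its values were seen. The 4 endothelial markers tested had a mean log2(FPKM + 0.5) of 5.39 to 5.85 in controls and 5.21 to 5.66 in runners, with 0 called. All 4 were fitted below 0, at -0.40 for Kdr, -0.32 for Tek, -0.04 for Cdh5 and -0.02 for Tie1. The part of endothelial RNA in the value of Hspa12b was not tested.

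Hsp90ab1, the member with the most RNA per length, did not pass. It lay at 675, 598, 552 and 719 FPKM in NC and at 776, 657, 779 and 587 in 0 h p.r. The groups overlapped in part, with replicates 1 and 3 of the runners above every control and NC replicate 3 below every runner. The 95% interval of the log2 fold change ran from -0.27 to 0.54 around 0.14 (limma adjusted p 0.719). Hspa2, an HSP70 gene best known from testis, was at 6.3 to 11.1 FPKM in controls and 9.69 to 12.7 in runners (log2 fold change 0.39, SE 0.20, adjusted p 0.282). Hspa8, the constitutive HSP70 that the rule leaves out, was at 419 to 513 and 508 to 892 FPKM and did not pass either (0.53, SE 0.20, adjusted p 0.152).

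The TRiC chaperonin has 8 kinds of subunit in its ring, coded by Tcp1 and the Cct genes. Of the 7 Cct genes tested 0 passed, beside 5.72% of all genes, and at an unadjusted p under 0.05 only Cct6a did (0.0186). Their order by FPKM was nearly fixed: Cct5 was the highest and Cct4 the second in all 8 libraries, Cct2 and Cct7 took the next places in either order, Cct8 was the fifth, Cct3 the sixth and Cct6a the lowest in all 8. The mean in NC was 179.6 ± 50.3 FPKM for Cct5, 116 ± 23 for Cct4, 68.2 ± 15.3 for Cct2, 63 ± 9.7 for Cct7, 56.4 ± 8.36 for Cct8, 38.9 ± 2.08 for Cct3 and 34.1 ± 2.18 for Cct6a (SD, n = 4). The NC ranges of Cct2, Cct7 and Cct8 overlapped one another, although Cct8 was below the other two in all 8 libraries, and those of Cct5 and Cct4 also overlapped. The ranges of Cct4 and Cct2, of Cct8 and Cct3 and of Cct3 and Cct6a did not. These levels are per length of gene.

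Cct6a came closest to the threshold. It was at 35, 36.7, 32.1 and 32.4 FPKM in NC and at 46.2, 46.2, 49.1 and 35.3 in 0 h p.r. Replicates 1 to 3 of the runners were above every control and replicate 4 was within their range (log2 fold change 0.36, SE 0.13, limma adjusted p 0.131). Once replicate 4 was left out its adjusted p was 0.0369, but the other 7 fits without a library did not pass, with 0.306 as the highest, without 0 h p.r. replicate 3. Cct3 had the same shape, with 37.2 to 41.6 FPKM in controls and 48.1, 48, 54.5 and 38.9 in runners (0.27, SE 0.12, adjusted p 0.232). With array weights both passed, Cct6a at 0.44 (adjusted p 0.0202) and Cct3 at 0.34 (adjusted p 0.0468). Tcp1, the remaining subunit, was at 43.4 to 61.1 and 52 to 73 FPKM (0.38, SE 0.15, adjusted p 0.174).

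In the other 5 subunits the highest library of all 8 was a control, NC replicate 2. Cct5 stood at 159, 255, 147 and 158 FPKM in NC and at 182, 172, 182 and 156 in 0 h p.r. Without NC replicate 2 its log2 fold change went from -0.02 to 0.16 and did not pass (adjusted p 0.317). The sum over the 7 genes was 517.3, 718.1, 475.6 and 514.7 FPKM in NC and 608.9, 600.9, 640 and 527.7 in 0 h p.r., so that NC replicate 2 was above every post-run library and the other controls were below them all. This library also had the largest total FPKM (900138, against 554130 to 746030 in the other 7), the fewest recovered reads (11350560) and the largest share of FPKM in 13 mitochondrially coded genes, 31.1% against 16.3% to 21.9%. Fitted log2 fold changes of Cct4, Cct7, Cct2 and Cct8 were 0.15 (adjusted p 0.624), 0.17 (0.5), 0.10 (0.782) and 0.09 (0.746). Without NC replicate 2 they were 0.28 (adjusted p 0.144), 0.27 (0.118), 0.23 (0.189) and 0.19 (0.244). Under quantile scaling those of Cct2 and Cct8 turned to values just below 0.

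**Figure D3:**
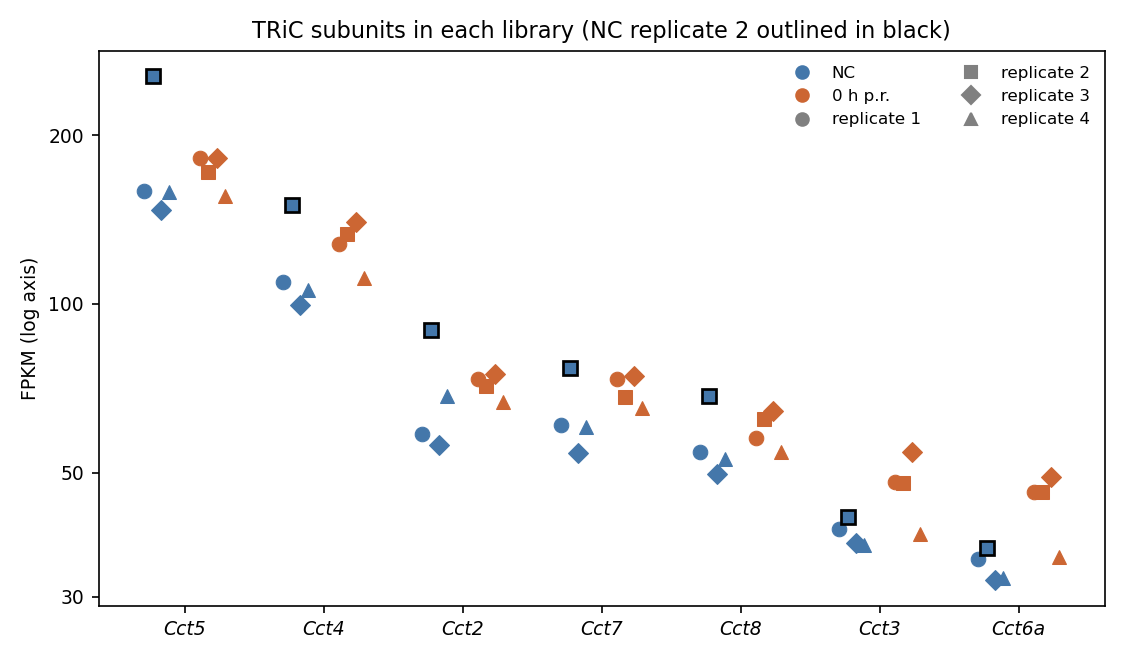
FPKM on a log axis of the 7 tested TRiC subunit genes in each library, NC in blue and 0 h p.r. in orange, with NC replicate 2 outlined. NC replicate 2 lies above every other library for Cct5 (255), Cct4, Cct2, Cct7 and Cct8, and 0 h p.r. replicate 4 lies lowest of its group for every subunit.

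In the mitochondria, the 10 members were led by the chaperonin. Hspd1 (ENSRNOG00000014525), the HSP60 barrel, was at 72.8, 66, 60.5 and 72.3 FPKM in NC and at 124, 112, 132 and 94.3 in 0 h p.r. All 4 runners were above all controls, with replicate 4 the nearest. The mean rose from 67.9 ± 5.81 to 116 ± 16.4 FPKM (SD, n = 4; 1.69-fold, log2 fold change 0.76, SE 0.14, limma adjusted p 0.0165). It passed in 4 of the 8 fits without a library. The other 4 had adjusted p-values of 0.0546 without NC replicate 3, and of 0.0504, 0.059 and 0.0576 without 0 h p.r. replicates 1, 2 and 3. With the replicate block Hspd1 did not pass either. Reads of Hspd1 can be shared with Hspe1, which overlaps it in RefSeq, since the strand setting of the count is not given.

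Hspe1 codes for the lid of the same chamber and shares the promoter stretch shown above with Hspd1. It was at 92.1, 128, 65.1 and 92.4 FPKM in NC and at 132, 110.2, 147 and 90.6 in 0 h p.r. The groups overlapped, since NC replicate 2 was above 2 of the runners and 0 h p.r. replicate 4 was also below NC replicates 1 and 4. The fitted value of 0.36 (SE 0.22) did not pass (limma adjusted p 0.388). It ranged from 0.20 without NC replicate 3 to 0.52 without NC replicate 2, and passed in neither fit. The ratio of Hspd1 to Hspe1 was 0.791, 0.515, 0.93 and 0.783 in controls and 0.94, 1.02, 0.898 and 1.04 in runners, so the pair kept no fixed ratio even among controls. Whether the change of Hspd1 differed from that of Hspe1 was not tested.

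Hspa9, the mitochondrial HSP70 that pulls proteins through the inner membrane, was at 35.7, 29.7, 34.2 and 35.2 FPKM in NC and at 50.9, 48.2, 51.8 and 32.9 in 0 h p.r. Replicates 1 to 3 of the runners stood together above the controls, and replicate 4 was among the controls. The log2 fold change was 0.42 (SE 0.16, limma adjusted p 0.153). Of the 8 fits with a library left out it passed in 1, without that replicate (0.57, adjusted p 0.022), and the adjusted p went up to 0.337 without 0 h p.r. replicate 3. Its J protein partner Dnaja3 was at 22.9 to 24.9 FPKM in controls and 19.2 to 27.2 in runners, with a fitted value of -0.06 (SE 0.13, adjusted p 0.825). Dnajc30, a J protein of the inner membrane, had the lowest fitted value of the class (-0.26, SE 0.16, adjusted p 0.4). The median over the 10 was 0.06, and 6 of the 10 were fitted above 0. That median was -0.05 without 0 h p.r. replicate 1 and 0.17 without NC replicate 2.

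None of the 12 members of the endoplasmic reticulum passed, beside 5.72% of all genes, a share at which so few genes can easily hold no call. Their median log2 fold change was 0.03, which went to -0.02 without NC replicate 2 and to 0.07 without NC replicate 4. Dnajc25, a membrane J protein of that compartment, was highest. It lay at 9.66, 10.8, 10.7 and 11 FPKM in NC and at 13, 13.3, 14.6 and 14.9 in 0 h p.r., without overlap (log2 fold change 0.39, SE 0.10, limma adjusted p 0.0618). With array weights it passed (0.39, adjusted p 0.0217). Dnajb12, another J protein of this membrane, also did not overlap (14.7 to 17.1 against 17.6 to 21.9 FPKM, adjusted p 0.248) and was singled out after its values were seen. Dnajb14, a close relative of Dnajb12, was lowest at -0.31 (SE 0.14, adjusted p 0.222), with 3.64 to 4.92 FPKM in controls and 2.99 to 3.81 in runners. Dnajc10, a reductase of the lumen, had the highest mean of the class over all 8 libraries, 30.8 ± 2.52 FPKM in controls and 33.1 ± 2.7 in runners (SD, n = 4), although the control mean of Dnajb11 was 31.6 FPKM. The 4 members best known as targets of the unfolded protein response, Dnajb9, Dnajb11, Dnajc3 and Hspa13, had fitted values of 0.00, -0.01, 0.00 and 0.14 with adjusted p-values of 0.993, 0.975, 0.987 and 0.505, and these 4 were picked after the values were seen.

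Of the 5 J proteins of the nucleus and the ribosome 0 passed, beside 5.72% of all genes (median 0.05, from -0.03 without NC replicate 4 to 0.17 without NC replicate 2). Dnajc21, which helps to mature the large ribosomal subunit, was at 12.8, 17.6, 15 and 14.9 FPKM in NC and at 36.2, 21.3, 29.6 and 14.2 in 0 h p.r. Replicates 1 to 3 of the runners were above the controls, and replicate 4 was inside their range (log2 fold change 0.66, SE 0.26, limma adjusted p 0.175). Its adjusted p was 0.0291 without that library, the only one of 8 whose removal let it pass, and 0.365 without 0 h p.r. replicate 3. It was 0.0174 with the muscle marker level in the fit, 0.0416 with array weights and 0.251 with the replicate block. Dnajc8, which works with splicing factors and had the highest level of this class, was at 49.4 to 63.6 and 51.9 to 56.8 FPKM (-0.01, SE 0.11, adjusted p 0.972). Dnajc2, the J protein of the ribosome exit, was lowest at -0.03 (SE 0.16, adjusted p 0.938). It was also the member whose level over the 8 libraries was most like that of the muscle markers (Pearson r 0.958, a description over libraries that share the muscle).

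Of the members of other or uncertain place 0 passed, beside 5.72% of all genes. The fitted values of the 4 tested ran from -0.33 for Hspbap1, which binds the small heat shock protein Hspb1, to 0.08 for Dnajc22 (limma adjusted p 0.298 and 0.845). Hspb11, a ciliary transport protein in spite of its name, had the highest level, 2.36 to 5.77 FPKM in controls and 2.75 to 3.34 in runners. Its top value was again in NC replicate 2.

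The muscle small heat shock proteins were spread more widely than any other class. Hspb7, a partner of filamin in the sarcomere, was at 209, 42.5, 250.2 and 153 FPKM in NC and at 129, 34.3, 38.2 and 19 in 0 h p.r. NC replicate 2 was far below the other controls and 0 h p.r. replicate 1 far above the other runners, so the groups overlapped. The log2 fold change was -1.67 with a standard error of 0.66 (limma adjusted p 0.176). Hspb6, which binds actin regulators in smooth and striated muscle, was at 306, 129, 224 and 200.4 FPKM in NC and at 241, 77.5, 92.7 and 51.6 in 0 h p.r. (-1.07, SE 0.44, adjusted p 0.194). Without 0 h p.r. replicate 1 it was -1.51 with an adjusted p of 0.0454, and it passed in none of the other 7 fits, where the adjusted p reached 0.392 (without NC replicate 1) and the fitted value closest to 0 was -0.77. Reads of Hspb6 can be shared with Lin37, which overlaps it in RefSeq.

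Hspb2 and Hspb3 form a complex of their own in muscle. Hspb2 was at 26.4, 25.7, 40.2 and 27.8 FPKM in NC and at 68.4, 15.1, 27.3 and 7.76 in 0 h p.r., a fitted value of -0.43 (SE 0.55, limma adjusted p 0.706). Hspb3 was at 9.06, 5.66, 17.3 and 10.5 and at 20.9, 6.64, 12.9 and 0.698, a fitted value of -0.56 (SE 0.79, adjusted p 0.741). In both genes the highest and the lowest library were runners, replicates 1 and 4. Without replicate 4 the fitted values turned to 0.05 and 0.29. Cryab, a small heat shock protein outside the rule, had the same extremes in the same libraries, 487 and 45.4 FPKM, and did not pass (-1.03, SE 0.64, adjusted p 0.389).

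Hspb8, which works with Bag3 to clear damaged sarcomere proteins by autophagy, lay the other way. It was at 52.1, 29.6, 99.5 and 66.8 FPKM in NC and at 151, 93.7, 132 and 56.3 in 0 h p.r. Replicates 1 and 3 of the runners were above the highest control, the other two within the range of the controls (log2 fold change 0.83, SE 0.40, limma adjusted p 0.259). Without NC replicate 2 the fitted value was 0.52, and without 0 h p.r. replicate 4 it was 1.11, and neither passed. Bag3 itself, which is outside the rule, was at 36.8 to 61.9 FPKM in controls and 143 to 189.8 in runners and passed (3.32-fold, adjusted p 0.00134). It was the only one called of 28 tested genes of the wider chaperone machinery. That is 3.57%, beside 5.72% of all genes, so the count does not set that list apart.

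These values were set against the level of muscle RNA, and none of the 15 relations computed passed an adjusted p of 0.05. The 15 took each gene with all muscle markers and with subsets of slow-fibre and of fast-fibre markers. Only the list of all muscle markers was planned, as a description with no p. Both subsets and all p-values were added later, and the adjusted p depends on that number of relations. In 0 h p.r. replicate 1 the 16 muscle markers had a mean log2(FPKM + 0.5) of 10.36 and in replicate 4 one of 5.71, which were the highest and the lowest of all 8 libraries. Over the 8 libraries Hspb2 and the muscle markers had a Pearson r of 0.93 (exact permutation p 0.00496, adjusted p 0.053 over 15 relations) and a Spearman rho of 0.786 (exact permutation p 0.0279, adjusted p 0.14). Without those 2 libraries r was 0.491. They were left out as the extremes of muscle level. That narrows the range and can lower r by itself, so the drop cannot tell whether the relation rests on them. For Hspb3 r was 0.873 (exact permutation p 0.00707, adjusted p 0.053) and 0.314 without them, and rho was 0.738 (exact permutation p 0.0458, adjusted p 0.172). Within the groups r was 0.657 in controls and 0.965 in runners for Hspb2, and 0.311 and 0.94 for Hspb3, over 4 libraries each. For Hspb8 r was 0.474 (exact permutation p 0.221, adjusted p 0.331) and 0.0638 without those 2 libraries, and rho was 0.548 (exact permutation p 0.171, adjusted p 0.366). Its r within the groups was 0.237 and 0.927.

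Against the mean of all muscle markers, r was 0.612 for Hspb6 (exact permutation p 0.101, adjusted p 0.19) and rho 0.429 (exact permutation p 0.299, adjusted p 0.408). For Hspb7 r was 0.52 (exact permutation p 0.199, adjusted p 0.331) and rho 0.429 (exact permutation p 0.299, adjusted p 0.408). Leaving out 0 h p.r. replicates 1 and 4, r was -0.135 for Hspb6 and 0.00682 for Hspb7. Within NC it was -0.597 and -0.203, and within 0 h p.r. 0.962 and 0.97. Both genes were also set against the markers of slow fibres, Myh7, Tnnt1 and Tnni1, a subset picked after the values were seen. The mean level of these markers was 7.10 to 8.49 in controls and 0.42 to 7.58 in runners, with the lowest value in 0 h p.r. replicate 3, where Myh7 was at 0.514 FPKM. None of the 3 passed (adjusted p 0.133 to 0.169). Against this level, r was 0.71 for Hspb7 (exact permutation p 0.0301, adjusted p 0.129) and rho 0.905 (exact permutation p 0.00456, adjusted p 0.0685). For Hspb6 r was 0.709 (exact permutation p 0.0344, adjusted p 0.129) and rho 0.857 (exact permutation p 0.0107, adjusted p 0.0804). Leaving out 0 h p.r. replicates 3 and 4, r was 0.932 and 0.942. Within NC r was 0.981 for Hspb7 and 0.951 for Hspb6, and within 0 h p.r. 0.502 and 0.465, over 4 libraries each. The fast-fibre markers gave an r of 0.0652 for Hspb7 (exact permutation p 0.874) and 0.158 for Hspb6 (0.702). With them r within NC was -0.506 for Hspb7 and -0.829 for Hspb6, and within 0 h p.r. 0.888 and 0.891. No relation of Hspb6 or Hspb7 passed an adjusted p of 0.05, and the differences between the marker lists were not tested. The permutations of all these correlations shuffled the libraries across both groups. Their p-values therefore also carry any difference between the groups. Hspb8 had an r of -0.302 with the slow-fibre markers (exact permutation p 0.468) and of 0.622 with the fast-fibre ones (0.0992). With the mean of all muscle markers as a covariate, none of the 5 small heat shock proteins passed.

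Ratios between the 5 genes were then taken within each library, a step added after the values were seen. Among the 10 pairs of the 5 genes, the groups did not overlap for the 3 pairs of Hspb8 with Hspb7, Hspb6 and Hspb3. Hspb7 over Hspb8 was 4.01, 1.44, 2.51 and 2.29 in controls and 0.852, 0.366, 0.29 and 0.338 in runners, so Hspb7 exceeded Hspb8 in every control and in none of the runners. Hspb6 over Hspb8 was 5.87, 4.38, 2.25 and 3 in controls and 1.59, 0.828, 0.705 and 0.918 in runners. The log2 differences of -2.50 and -1.91 each had an exact two-sided permutation p of 0.0286, the smallest that 70 assignments allow, and 0.0952 after adjustment over the 10 pairs, which does not pass. Hspb2 over Hspb8 overlapped, with 0.404 to 0.871 in controls and 0.138 to 0.453 in runners (-1.26, exact permutation p 0.0857, adjusted p 0.204). The slow-fibre level was lower in 3 of the 4 runners than in any control, and its part in these ratios was not tested.

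**Figure D4:**
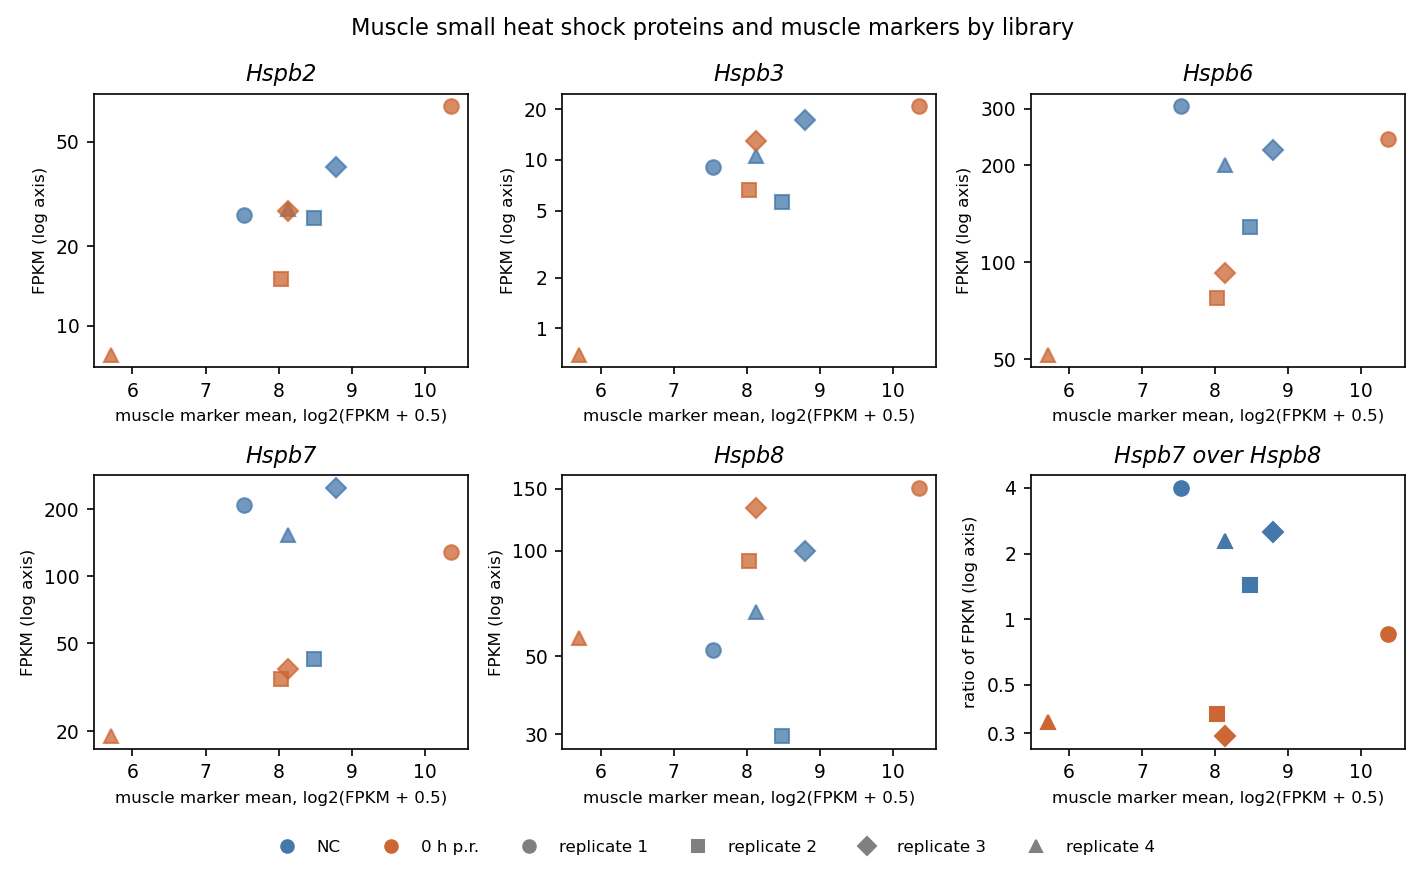
Each panel plots one of the 5 muscle small heat shock proteins in FPKM, or the ratio of Hspb7 to Hspb8, on a log axis against the mean log2(FPKM + 0.5) of 16 muscle markers in the same library, NC in blue and 0 h p.r. in orange. Hspb2 and Hspb3 run from the library with least muscle RNA (5.71) to the one with most (10.36), both post-run, and the ratio separates the groups at 0.852 and 1.44.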

How the data were processed

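Poly(A) RNA of 8 tendons (4 per group, grouped by sample title) was sequenced on stranded libraries. Per the labels the authors used HISAT2 2.1.0 on Rnor_6.0, featureCounts 1.6.3 and DESeq2 1.30.1; the strand setting of the count is not given in the sources used here. The deposited values are FPKM, scaled between libraries by the authors, beside columns of the authors' own fold changes and p-values, which were not used. Whole reads were recovered from the steps between FPKM values for 15590 of 15590 genes (tolerance 0.02), giving 11350560 to 17897056 reads per library as depth, and a median gene had 218.

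Genes at an FPKM of at least 0.5 in 4 libraries (13863) were compared as log2(FPKM + 0.5) with limma 3.58.1 in R 4.3.3 (eBayes with trend, two-sided, Benjamini-Hochberg over all tested genes), which understates changes of low genes. Calls needed an adjusted p under 0.05. On simulated reads with 2-fold changes, 49.7% of 175 changed genes were called and 8.42% of calls were unchanged genes. The simulation gave every gene the same spread between replicates (negative binomial dispersion 0.05), which was not estimated from these data. It held no differences in tissue make-up between libraries, so these shares are not those of the real comparison. Ratios and correlations were tested by exact permutation in Python 3.11.15 with numpy 2.4.6. Members, classes and marker lists were chosen with earlier results of these data known. Named were members past the adjusted p, all TRiC and muscle small heat shock genes, Hspa9, Hspd1, Hspe1, Dnaja3, Hsp90ab1, Hspa4 and Hspa2, members under the filter, the highest level and extreme changes of each class, and, outside the members, inducible genes and machinery past both thresholds with Tcp1 and Cryab. Promoters came from RefSeq on GRCr8 and were searched on both strands; no coordinates of Rnor_6.0 are given. Alternatives comprised pseudocounts, filters, scalings, array weights, a replicate block, a muscle covariate, voom on recovered reads and leaving out libraries.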

Additional observations from a re-analysis of the deposited data

Results flagged for a closer look

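Among 37 named members and 74 groups of 4 libraries, 6 groups had a library whose gap to its nearest neighbour passed Dixon's 95% limit on the log2 scale, where chance flags about 5% of groups. NC replicate 2 stood apart with 255 FPKM of Cct5. NC replicate 3 stood apart with 40.2 FPKM of Hspb2. In 0 h p.r. replicate 4, Hspa9 was the lowest of its group at 32.9 FPKM and Dnajc24 the highest at 8.8 FPKM. In 0 h p.r. replicate 1, Dnajc22 was lowest at 2.37 FPKM, and Dnajc6, which lay under the filter, at 0.101 FPKM.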

How the results depend on the processing

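Dnaja1 and Dnajb4 passed an adjusted p of 0.05 under each of the 19 alternatives, and their direction held in all. The count of members higher went from 4 to 13 with array weights, and ranged from 2 to 8 when each library was left out. The count lower went from 0 to 3 with array weights (Hspb6, Hspb7 and Hspa12b), and ranged from 0 to 1 without single libraries. Calls over all genes, in either direction, went from 793 to 2069 with array weights and ranged from 247 to 1164 without single libraries. Members past both thresholds were 4 with array weights or voom on recovered reads, and 1 without both 0 h p.r. libraries of extreme muscle level, a choice added after seeing the data, against 2.

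Over the fits without single libraries, the median of the cytosolic J proteins ranged from 0.081 to 0.38, that of the nuclear class from -0.031 to 0.17, of the mitochondrial class from -0.052 to 0.17, of the endoplasmic reticulum class from -0.023 to 0.065, of the muscle small heat shock proteins from -1.09 to 0.045 and of the class of other or uncertain place from -0.30 to 0.037. Under quantile scaling the endoplasmic reticulum median was -0.026 against 0.030. The direction of several fitted values changed. Under quantile scaling they were -0.0002 for Cct2, -0.021 for Cct8 and -0.0083 for Hsp90ab1, and with array weights 0.14 for Cct5, 0.043 for Dnajc24, 0.037 for Dnajc8 and 0.061 for Hspb11. Without both extreme muscle libraries Cct5 was at 0.017. Without single libraries the ranges were -0.10 to 0.16 for Cct5, -0.15 to 0.019 for Dnaja3, -0.17 to 0.090 for Dnajc2, -0.24 to 0.16 for Dnajc24, -0.052 to 0.068 for Dnajc8, -0.24 to 0.14 for Hspb11, -0.97 to 0.045 for Hspb2 and -1.09 to 0.29 for Hspb3. The cause was not tested.

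Replicate numbers did not pair the libraries, since the correlations of same-numbered deviations were -0.141, -0.0708, 0.0717 and 0.00562. With the replicate block the higher count was 3, with Hspd1 at 0.76 and an adjusted p of 0.0848, and no library correlated best with the one of its own number. Scaling moved the median of all genes by less than 0.1. At 11350560 or more reads per library, Dnajb3 was tested on 12 to 26 reads. The simulation called 49.7% of 2-fold changes, at a fixed spread that need not be that of these libraries.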
